A study of Homo sapiens with 20 samples.

Results

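The amino acid transporters described here are 40 genes of the solute carrier families SLC1, SLC3, SLC7, SLC36, SLC38 and SLC43, taken by symbol from the 54435 features counted in 12 RNA-seq libraries. The rule uses only the names, but the members were chosen with earlier results of these data known. Of the 40 genes, 39 had a count in at least 1 library and 35 passed the filter on low counts, among 16792 features tested. SLC7A13 had 0 counts in every library, which allows a level of up to 0.133 to 0.294 CPM (read counts scaled to a common library size) depending on the library, a limit of 3 counts that covers counting error only. The other untested genes, SLC38A11, SLC38A8, SLC7A4 and SLC7A9, had at most 14 counts in any library.

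Cell lines were H1, an established human embryonic stem cell line, unedited (WT), and the clones KO1 and KO2, labelled as knockouts of the long noncoding RNA gene DIGIT. Day 0 cells grew undifferentiated in mTeSR1 medium, and day 4 cells had been kept in RPMI and B27 to which Activin A was added at 50 ng/ml, a signalling protein that drives these cells towards endoderm. The design asks how loss of DIGIT alters this differentiation. Poly(A) RNA of 2 libraries represents each of the 6 groups. Each knockout line is a single clone, and nothing in the labels says that the libraries of a group are separate cultures, so p-values measure only the spread between these libraries, which may be technical. DIGIT's own level was not analysed here, and each clone's genotype is taken from its label.

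Amino acid transporters move amino acids across the plasma membrane and the membrane of the lysosome. Heavy chains of the SLC3 family carry light chains of the SLC7 family to the cell surface, where the pair exchanges one amino acid for another. Other carriers couple uptake to sodium or protons, and several of these genes are known to be induced through the kinase GCN2 and the transcription factor ATF4 when amino acids are scarce. Human embryonic stem cells are known to depend on methionine, glutamine and cystine from the medium.

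Total counts per library lay between 9942016 and 21394547. The 8 markers of definitive endoderm summed to 6.50 to 14.8 CPM at day 0, and at day 4 to 4821 to 5348 CPM in WT, 5402 to 5488 CPM in KO1 and 1007 to 1247 CPM in KO2. Against WT at day 4, 0 of these 8 were higher and 2 lower in KO1 (median log2 -0.3), and 0 higher and 8 lower in KO2 (median log2 -2.66). The 6 pluripotency markers summed to 3682 to 3947 CPM at day 0, 2801 to 2827 CPM in WT and KO1 at day 4 and 3301 to 3339 CPM in KO2 at day 4. The 6 neuroectoderm markers, of which OTX2 is also known in early endoderm, summed to 335 to 420.1 CPM at day 0, and at day 4 to 1030.1 to 1034 CPM in WT, 1215 to 1249 CPM in KO1 and 1082 to 1095 CPM in KO2. The 6 mesoderm markers summed to 213 to 363 CPM at day 0, and at day 4 to 144 to 150.4 CPM in WT, 172 to 177 CPM in KO1 and 122 to 136 CPM in KO2. Of 5 tested mesoderm markers 2 were higher and 0 lower in KO1 than in WT at day 4 (median log2 1). Of 5 tested neuroectoderm markers 1 was higher and 1 lower in that comparison (median log2 -0.25), so the higher neuroectoderm sum in KO1 is not shared by the list. The 6 trophoblast markers stayed at 10.9 CPM or less in sum. The KO1 day 0 pair stood apart, with a chi-square of 20.1 per gene between its libraries where the other pairs had 1.89 to 3.83, so a change over the 4 days in KO1 is also given without one of these libraries where that ends or makes its call. These are bulk libraries, in which fewer cells of a type and less RNA per cell cannot be told apart.

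At day 0 no transporter passed the test between either clone and WT. From day 0 to day 4 the transporters rose and fell in similar numbers in WT, with SLC7A14, SLC1A1, SLC1A4 and SLC7A5 among those that rose and SLC7A10, SLC7A8 and SLC38A4 among those that fell. At day 4 KO1 held more transcript than WT of 14 transporters, SLC1A4 and SLC7A11 foremost, whereas in KO2 similar numbers were higher and lower, and SLC36A1 was the lowest against WT of those that reached 5 CPM in either group. Levels are CPM, which are not scaled by gene length, so levels are compared only within a gene.

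In WT 12 of the 35 tested transporters rose and 11 fell from day 0 to day 4, beside 24.3% and 25.4% of all tested features that were called higher and lower. A call is an adjusted p under 0.05 from edgeR's quasi-likelihood test over all tested features. In KO1 15 rose and 8 fell (background 29.1% and 29.3%), and in KO2 11 rose and 9 fell (background 25.0% and 25.7%). Median log2 changes of the 35 genes were 0.03 in WT, 0.26 in KO1 and 0.14 in KO2, where the median of all features was 0 in each. Without KO1 day 0 replicate 1 the KO1 counts were 16 and 7, where 5514 and 5328 of all features were called, and without replicate 2 they were 14 and 12, where 5032 and 4893 were. In WT the transporters called higher and lower were 34.3% and 31.4% of those tested, so the count is read against a background in which many features moved each way.

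At day 4, 14 transporters were higher in KO1 than in WT and 2 were lower, beside 10.5% and 9.42% of all features, and the median log2 difference was 0.32 against 0.01 for all features. KO2 had 6 higher and 7 lower, beside 13.5% and 14.5%, with a median of 0.16. These comparisons share the WT libraries. Directly compared, KO2 had 3 transporters above and 9 below KO1, beside 10.8% and 14.3%, with a median of -0.21. In a fit of only the libraries compared, SLC36A2 (log2 -0.98, adjusted p = 0.0245), SLC38A5 (-0.38, adjusted p = 0.00152) and SLC7A6 (-0.27, adjusted p = 0.0175) were also called lower in KO1 than in WT. SLC7A5 (0.3, adjusted p = 0.00406) and SLC43A1 (0.27, adjusted p = 0.0269) were also called higher. All features called lower there went from 1582 to 2556, and higher from 1755 to 2553. The count of 14 in KO1 became 9 without WT day 4 replicate 2 and 8 without KO1 day 4 replicate 1, while all features called higher went from 1755 to 909 and 758. The 6 higher in KO2 became 10 without KO1 day 0 replicate 1 or 2, with 3169 and 3171 of all features higher. The 7 lower became 3 without WT day 4 replicate 1 or KO2 day 4 replicate 2, with 1549 and 1412 of all features lower. The KO1 day 4 libraries also had the higher mesoderm and neuroectoderm sums given above, though the median neuroectoderm marker was lower (log2 -0.25). The part of these markers in the counts of transporters was not tested. No pair of groups overlapped in its libraries for any of the called differences between 2 groups. With 2 libraries a group this follows largely from the call itself, and the share over all features was not counted.

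At day 0, 0 transporters were called in KO1 against WT (background 0.0596% higher and 0.179% lower) and 0 in KO2 against WT (background 0.0536% and 0.0893%) with edgeR. At an unadjusted p under 0.05, 2 were higher in each clone and 0 lower, and DESeq2 also called 0 in each, with 1 in each under 0.05 unadjusted. Without KO1 day 0 replicate 1, 1 transporter was called higher and 5 lower in KO1, in a setting that called 1939 features higher and 1848 lower. Without replicate 2, 1 was called higher and 0 lower, beside 12 and 30 features. The change over 4 days itself differed from that of WT for 10 transporters in KO1, 9 towards higher and 1 towards lower values (background 4.99% and 4.81%). In KO2 it differed for 8, of which 5 went towards higher and 3 towards lower values (background 6.37% and 7.50%).

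**Figure D1:**
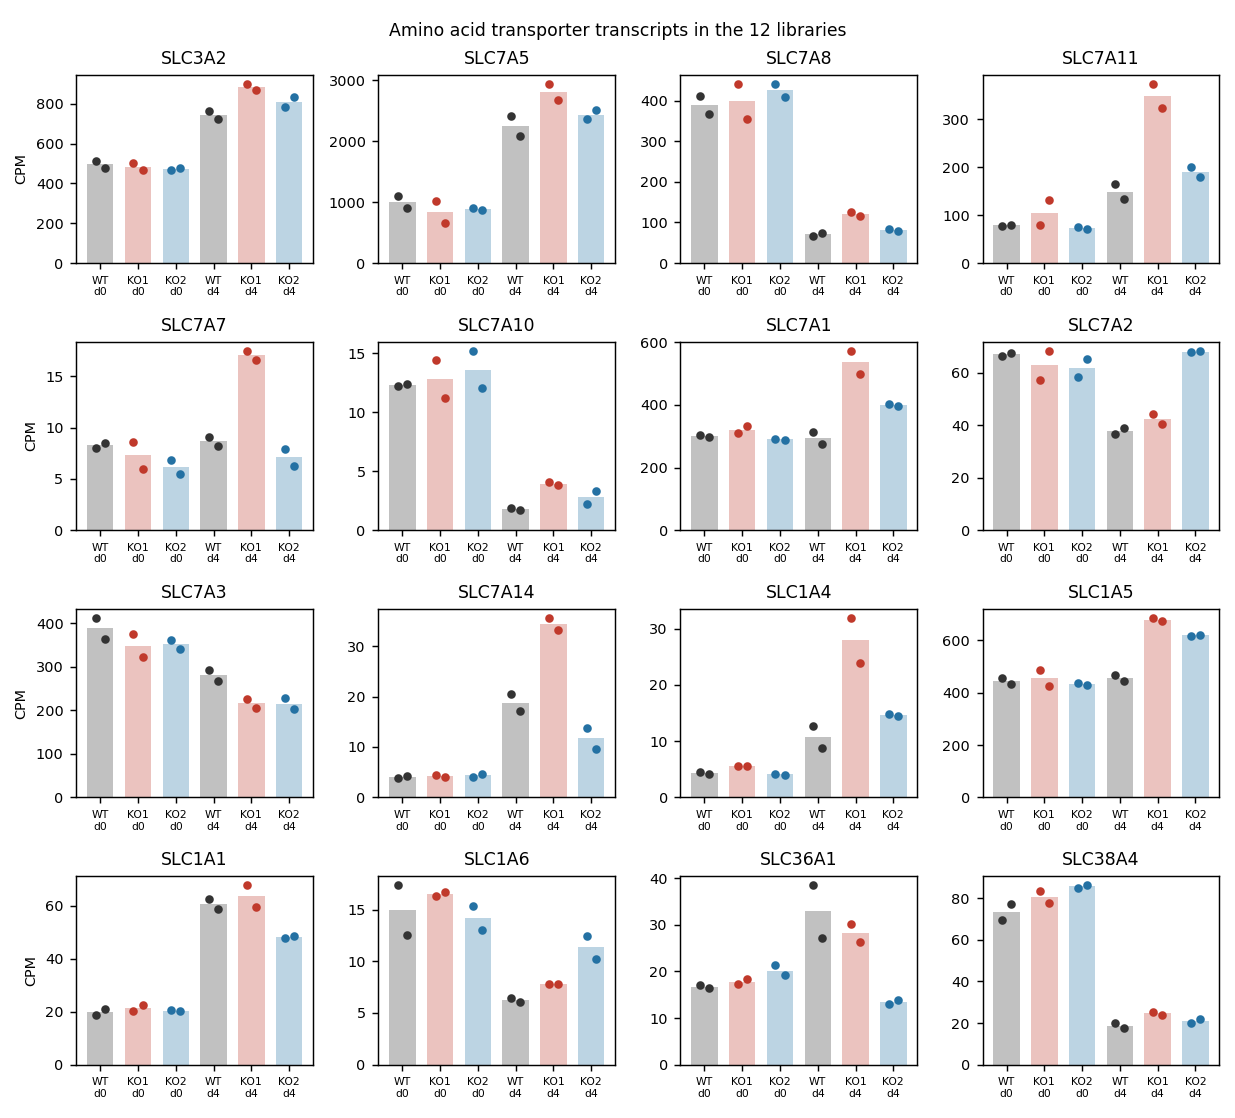
CPM of 16 transporter transcripts in each of the 12 libraries, with the group on the horizontal axis (d0 and d4 for day 0 and day 4), points for libraries and bars for the mean of 2. The KO1 day 4 libraries stand highest for SLC7A11, at 374 and 323 CPM, and the KO2 day 4 libraries lowest for SLC36A1, at 13.0 and 13.9 CPM.

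The heavy chain SLC3A2, also known as CD98 or 4F2hc, rose in all 3 lines, together with its light chain SLC7A5. SLC3A2 had 513 and 478 CPM in WT at day 0 and 765 and 725 CPM at day 4, a log2 rise of 0.59 (SE 0.07, adjusted p = 6.18e-06), and rose by 0.87 in KO1 and 0.78 in KO2. At day 4 its libraries read 901 and 869 CPM in KO1 and 783 and 833 CPM in KO2, all above those of WT. The difference of KO1 from WT was small, at log2 0.25 (SE 0.07, adjusted p = 0.0222), and was lost without any 1 of the 4 libraries compared (adjusted p = 0.169 and 0.077 without KO1 replicate 1 and 2, 0.0658 and 0.178 without WT replicate 1 and 2). For KO2 it was 0.12 (adjusted p = 0.24). SLC3A1, the heavy chain of the kidney and gut cystine transporter, stayed at 1.22 CPM or less and passed no test.

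SLC7A5, also known as LAT1, brings leucine and other large neutral amino acids into the cell in exchange for glutamine. Its libraries read 1094 and 911 CPM in WT at day 0 and 2404 and 2089.5 CPM at day 4, a rise of 2.24-fold (log2 1.16, SE 0.15, adjusted p = 9.66e-06). In KO1 they read 1011 and 659 CPM, then 2943 and 2668 CPM, and in KO2 909 and 864 CPM, then 2356 and 2508 CPM. Day 4 lay above day 0 in each line without overlap, and KO1 at day 4 held the highest values. SLC7A5 rose by log2 1.75 in KO1 and 1.46 in KO2. KO1 against WT at day 4 gave log2 0.32 (SE 0.14, adjusted p = 0.138), which was called without KO1 day 0 replicate 1 (log2 0.31, adjusted p = 0.00222) or replicate 2 (log2 0.31, adjusted p = 0.00218). SLC7A5 has copies in the genome, and SLC7A5P1 and SLC7A5P2, which may share reads with it, rose by log2 0.91 and 0.99 in WT.

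SLC7A8, known as LAT2, carries a wide range of neutral amino acids with the same heavy chain and went the opposite way to SLC7A5. It fell from 410.1 and 367 CPM to 67.2 and 74.0 CPM in WT, a change of 5.5-fold (log2 -2.46, SE 0.11, adjusted p = 9.73e-11). In KO1 it went from 442 and 354 CPM to 125 and 115 CPM (log2 -1.73), and in KO2 from 439.7 and 409 CPM to 82.8 and 79.2 CPM (log2 -2.39). All 3 lines fell, but both KO1 libraries stayed above every WT and KO2 library at day 4. KO1 exceeded WT by log2 0.76 (SE 0.11, adjusted p = 0.000154), KO2 exceeded WT by 0.20 (adjusted p = 0.188), and KO2 lay below KO1 by log2 -0.57 (adjusted p = 0.000989). The fall in KO1 was smaller than in WT by log2 0.73 (SE 0.14, adjusted p = 0.00588), and without KO1 day 0 replicate 1 or 2, or in any other setting tried, it was still called (adjusted p at most 0.0419).

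SLC7A11, known as xCT, exchanges cystine for glutamate and so supplies cysteine for glutathione. In WT it went from 77.1 and 79.8 CPM to 164 and 134 CPM (log2 0.92, SE 0.17, adjusted p = 0.000373). KO1 had 78.9 and 131 CPM at day 0 and 374 and 323 CPM at day 4, and KO2 had 74.5 and 70.3 CPM, then 199.9 and 179 CPM. The KO1 day 0 libraries thus lay far apart, while at day 4 both KO1 libraries stood above all others. KO1 exceeded WT at day 4 by 2.35-fold (log2 1.23, SE 0.17, adjusted p = 0.000123) and KO2 lay below KO1 by log2 -0.88 (adjusted p = 0.00105). The rise over 4 days exceeded that of WT by 0.81 in KO1 (adjusted p = 0.0426), which was 0.48 without KO1 day 0 replicate 1 and 1.22 without replicate 2. That call was lost without any library of WT, KO2 or KO1 day 4, and with DESeq2 (adjusted p = 0.113). KO2 against WT gave log2 0.35 (SE 0.17, adjusted p = 0.128), called without KO1 day 0 replicate 1 (adjusted p = 0.00205) or replicate 2 (adjusted p = 0.00203). SLC7A11-AS1 overlaps SLC7A11, and reads of the pair cannot be told apart where counting ignores strand.

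The remaining light chains differed in direction. SLC7A7, which exports cationic amino acids in exchange for neutral ones, had 8.04 and 8.48 CPM in WT at day 0 and 9.08 and 8.25 CPM at day 4. KO1 went from 8.57 and 6.01 CPM to 17.5 and 16.6 CPM, and KO2 from 6.84 and 5.48 CPM to 7.94 and 6.29 CPM. The gene rose in KO1, by log2 1.24 (SE 0.17, adjusted p = 1.69e-05), and both KO1 day 4 libraries were the highest of the 12. Changes over the 4 days were 0.06 in WT and 0.20 in KO2 (adjusted p = 0.8 and 0.444), and KO1 exceeded WT at day 4 by 0.98 (SE 0.17, adjusted p = 0.00111). KO2 lay below KO1 by log2 -1.27 (SE 0.18, adjusted p = 9.64e-05).

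SLC7A10, known as asc-1, exchanges small neutral amino acids including D-serine, and it had the largest fall of the transporters in WT. It went from 12.2 and 12.4 CPM to 1.91 and 1.74 CPM in WT, 6.75-fold (log2 -2.76, SE 0.23, adjusted p = 9.99e-08). In KO1 it went from 14.4 and 11.2 CPM to 4.06 and 3.85 CPM, and in KO2 from 13.6 ± 2.21 CPM (SD, n = 2) to 2.25 and 3.35 CPM. Every day 4 library lay below every day 0 library. KO1 at day 4 exceeded WT by log2 1.11 (SE 0.26, adjusted p = 0.00786), a call lost without KO1 day 4 replicate 1 (adjusted p = 0.0538) or WT day 4 replicate 2 (adjusted p = 0.0713). The overlapping gene LRP3 fell by log2 -0.48 in WT, and its share of SLC7A10's reads was not tested. SLC7A6, a relative of SLC7A7, rose from a mean of 57.6 ± 1.42 to 102 ± 11.7 CPM in WT (SD, n = 2), by log2 0.82, and by 0.52 and 0.43 in KO1 and KO2. KO1 lay below WT in SLC7A6 at day 4 by log2 -0.27 in a fit of only the libraries compared (adjusted p = 0.0175). This was not called in the main fit of all 12 libraries. At day 4 SLC7A6 was lower in KO2 than in WT, by log2 -0.35 (adjusted p = 0.011), a call lost without KO2 day 4 replicate 2 (adjusted p = 0.135) or WT day 4 replicate 1 (adjusted p = 0.143).

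**Figure D2:**
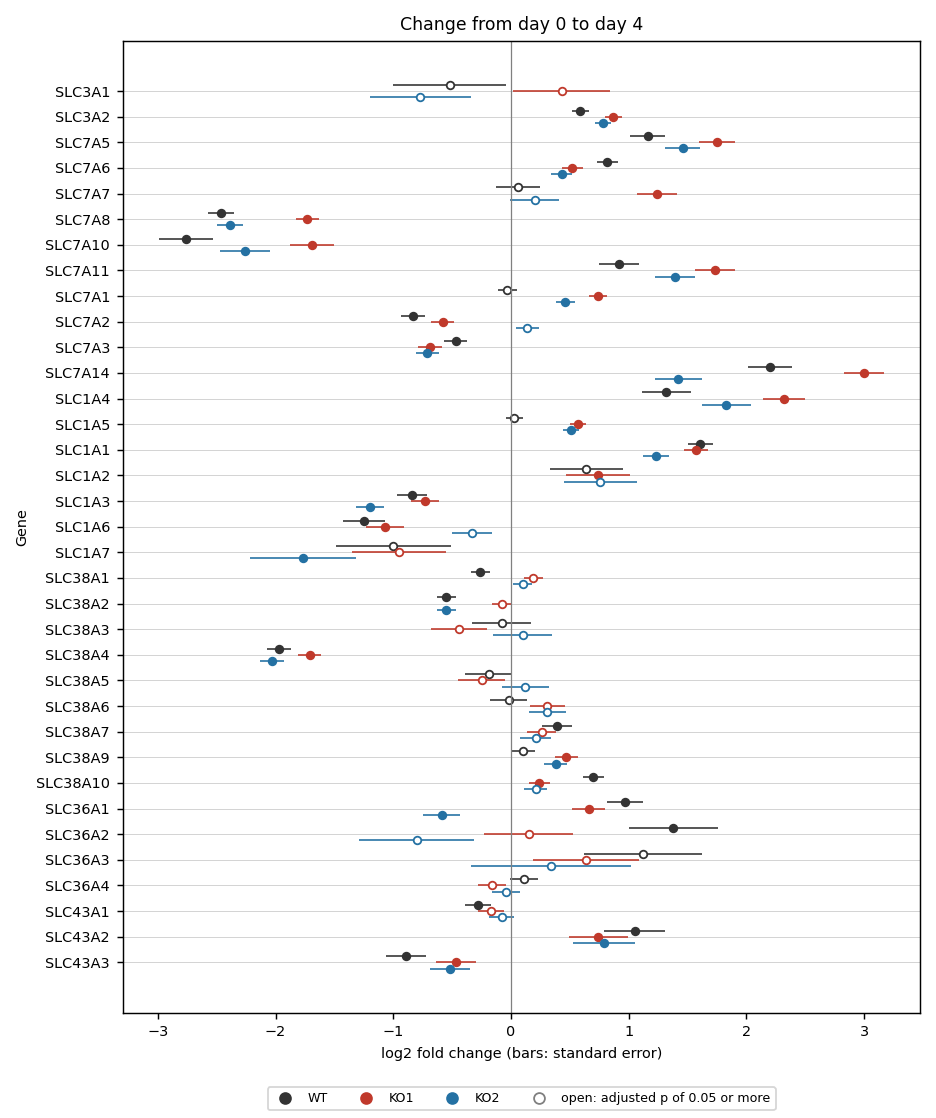
Log2 fold change from day 0 to day 4 for the 35 tested transporters in WT, KO1 and KO2, with bars for the standard error and filled points for an adjusted p under 0.05. SLC7A8, SLC7A10 and SLC38A4 fell in all 3 lines, and SLC36A1 rose in WT and KO1 (log2 0.97 and 0.66) and fell in KO2 (log2 -0.59).

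Of the cationic carriers, which take up arginine, lysine and ornithine, SLC7A1 was higher in both clones at day 4. SLC7A1 had 303 and 298 CPM in WT at day 0 and 314 and 274 CPM at day 4, a change of log2 -0.03 (adjusted p = 0.782). KO1 went from 309.6 and 333 CPM to 573 and 499.8 CPM, and KO2 from 292 and 288 CPM to 403 and 396 CPM. Both clones thus ended above WT without overlap, KO1 by log2 0.87 (SE 0.08, adjusted p = 5.13e-06) and KO2 by 0.44 (SE 0.08, adjusted p = 0.00111). KO2 lay below KO1 by log2 -0.43 (adjusted p = 0.00151).

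SLC7A2 and SLC7A3, which carry the same amino acids, fell in WT. SLC7A2 had 66.4 and 67.5 CPM in WT at day 0 and 36.8 and 38.8 CPM at day 4 (log2 -0.83, SE 0.10, adjusted p = 7.78e-06). In KO1 it went from 57.2 and 68.4 CPM to 44.1 and 40.4 CPM, and in KO2 from 58.3 and 65.1 CPM to 67.9 and 68.1 CPM. It fell in WT and KO1, while the change in KO2 was log2 0.14 (adjusted p = 0.261). At day 4 KO2 exceeded WT by log2 0.85 (SE 0.10, adjusted p = 2.15e-05) and KO1 by 0.69 (adjusted p = 0.000136). SLC7A3 fell from 389 ± 34.7 to 281 ± 18.0 CPM in WT and to 216 ± 15.0 CPM in KO1 and 215 ± 18.1 CPM in KO2 (SD, n = 2). Its differences from WT at day 4 were log2 -0.38 in each clone, with adjusted p = 0.012 and 0.00752. That call was lost for KO1 without KO1 replicate 2 (adjusted p = 0.128) or WT replicate 1 (adjusted p = 0.101) of day 4, and for KO2 without KO2 replicate 2 (adjusted p = 0.111) or WT replicate 1 (adjusted p = 0.0734).

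SLC7A14, which belongs to the same branch of the family and is known from lysosomes of neurons, had the largest rise in WT. It had 3.87 and 4.24 CPM at day 0 and 20.5 and 17.1 CPM at day 4, 4.6-fold (log2 2.20, SE 0.19, adjusted p = 1.4e-07). KO1 went from 4.45 and 4.14 CPM to 35.6 and 33.1 CPM, and KO2 from 4.12 and 4.60 CPM to 13.8 and 9.64 CPM. At day 4 the 3 lines did not overlap, with KO1 highest and KO2 lowest. KO1 exceeded WT by log2 0.87 (SE 0.15, adjusted p = 0.000752) and KO2 lay below KO1 by log2 -1.56 (SE 0.15, adjusted p = 3.16e-06). KO2 lay below WT by log2 -0.69 (SE 0.16, adjusted p = 0.00442), a call lost without KO2 day 4 replicate 2 (log2 -0.44, adjusted p = 0.0977) or WT day 4 replicate 1 (log2 -0.57, adjusted p = 0.0586).

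The neutral exchangers of the SLC1 family, SLC1A4 (ASCT1) and SLC1A5 (ASCT2), were both higher in KO1 than in WT at day 4. SLC1A4, which exchanges alanine, serine and cysteine, had 4.45 and 4.10 CPM in WT at day 0 and 12.7 and 8.70 CPM at day 4 (log2 1.32, SE 0.21, adjusted p = 0.000104). KO1 went from 5.55 and 5.56 CPM to 31.9 and 23.9 CPM, and KO2 from 4.21 and 4.02 CPM to 14.8 and 14.5 CPM. All lines rose, and at day 4 the order was WT, KO2 and KO1 without overlap. KO1 exceeded WT by 2.61-fold (log2 1.38, SE 0.17, adjusted p = 5.36e-05), and KO2 lay below KO1 by log2 -0.92 (adjusted p = 0.000761). For KO2 against WT the difference was 0.46 (SE 0.18, adjusted p = 0.0669), called without KO1 day 0 replicate 1 (adjusted p = 0.028) or replicate 2 (adjusted p = 0.0278) and without WT day 4 replicate 1 (log2 0.73, adjusted p = 0.0222).

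SLC1A5, the main glutamine exchanger of many dividing cells, had 457 and 434 CPM in WT at day 0 and 468 and 445 CPM at day 4. KO1 went from 488 and 425 CPM to 686 and 672 CPM, and KO2 from 437 and 431 CPM to 617 and 621 CPM. WT showed no called change (log2 0.03, adjusted p = 0.727), while all 4 day 4 libraries of the clones lay above all other libraries. KO1 exceeded WT by log2 0.57 (SE 0.07, adjusted p = 8.46e-05) and KO2 by 0.44 (SE 0.07, adjusted p = 0.000451). The changes over the 4 days exceeded that of WT by 0.54 in KO1 (adjusted p = 0.00526) and 0.48 in KO2 (adjusted p = 0.00707). These were called in every alternative tried, at adjusted p values of at most 0.0367 and 0.0414.

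SLC1A4, SLC1A5 and SLC7A1 were the 3 transporters of 31 with a promoter entry whose window held the letters TGATGNAA on either strand. This motif is the core of the amino acid response element that ATF4 binds together with C/EBP proteins. Promoters are RefSeq sequences of GRCh38.p14 from 250 bases before to 50 bases after a listed start of the gene. Of 35116 such promoters, 1270 (3.62%) held a match. Whether a listed start is the most used start of its gene, or lies inside the gene, was not checked. The windows below run 5′ to 3′ on the gene's strand from 150 bases before to 20 bases after the start, and capitals mark the match. They cover chr2:64989249-64989418 (plus strand) for SLC1A4, chr19:46784795-46784964 (minus strand) for SLC1A5 and chr13:29595669-29595838 (minus strand) for SLC7A1.
SLC1A4: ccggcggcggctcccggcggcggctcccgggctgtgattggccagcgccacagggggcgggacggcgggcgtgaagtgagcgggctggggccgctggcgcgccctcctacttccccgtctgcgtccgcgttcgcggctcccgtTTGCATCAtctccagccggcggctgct
SLC1A5: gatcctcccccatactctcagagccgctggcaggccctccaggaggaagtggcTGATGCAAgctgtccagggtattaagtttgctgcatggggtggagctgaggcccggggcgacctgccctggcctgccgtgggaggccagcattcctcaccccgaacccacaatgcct
SLC7A1: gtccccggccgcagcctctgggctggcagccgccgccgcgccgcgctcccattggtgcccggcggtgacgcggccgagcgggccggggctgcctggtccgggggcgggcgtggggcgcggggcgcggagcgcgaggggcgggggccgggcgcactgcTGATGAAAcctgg
The match reads TTGCATCA in SLC1A4, on the opposite strand, and begins 7 bases before the start, whereas it begins 97 bases before it in SLC1A5. A match is a run of letters and no measured binding site. A second motif, the antioxidant response element TGACNNNGC, matched 13.3% of all promoters on either strand and 3 of the 31, SLC7A1, SLC7A5 and SLC7A6. SLC7A11 had no entry.

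**Figure D3:**
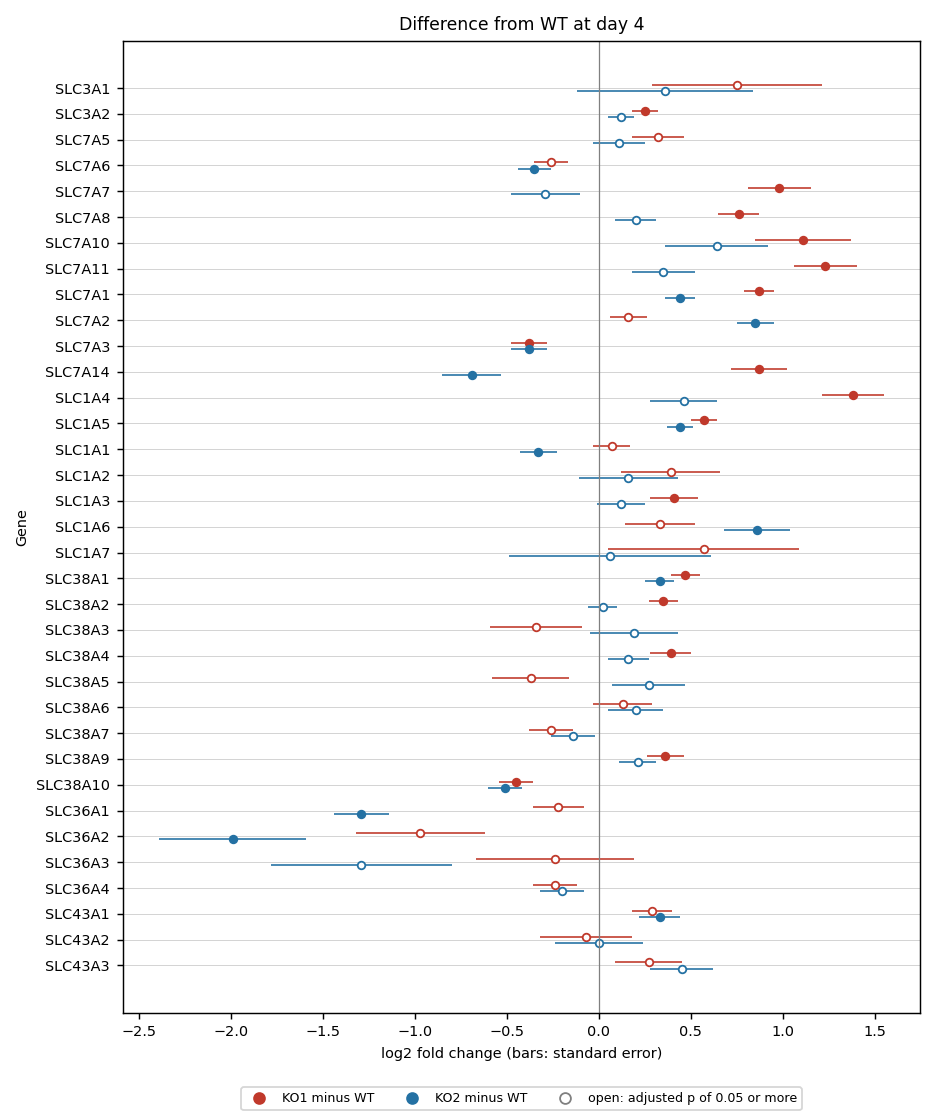
Log2 difference from WT at day 4 for the 35 tested transporters in KO1 and KO2, with bars for the standard error and filled points for an adjusted p under 0.05. In KO1 14 genes were called higher and 2 lower, and in KO2 6 and 7, with SLC36A2 lowest at log2 -1.99. Both sets of differences use the same WT libraries.

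The sodium-dependent carriers of glutamate and aspartate, known mostly from neurons, glia and kidney, split by direction. SLC1A1 (EAAT3), which also takes up cysteine, rose from 18.7 and 20.8 CPM to 62.5 and 58.8 CPM in WT, 3.05-fold (log2 1.61, SE 0.11, adjusted p = 7.82e-09). KO1 rose from 20.2 and 22.5 CPM to 67.8 and 59.6 CPM, and KO2 from 20.5 and 20.4 CPM to 47.7 and 48.5 CPM. KO2 ended below both other lines, by log2 -0.33 against WT (SE 0.10, adjusted p = 0.0182). That call was lost without KO2 day 4 replicate 1 (adjusted p = 0.0937) or replicate 2 (adjusted p = 0.0935) or WT day 4 replicate 1 (adjusted p = 0.117).

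SLC1A3 (EAAT1) and SLC1A6 (EAAT4) fell in WT. SLC1A3 went from 53.6 and 59.5 CPM to 32.7 and 30.7 CPM in WT (log2 -0.84, SE 0.13, adjusted p = 5.45e-05), from 78.8 and 60.5 to 43.7 and 40.4 CPM in KO1, and from 73.4 and 84.9 to 35.7 and 33.3 CPM in KO2. Its day 0 level in KO2 exceeded that in WT by log2 0.48, called with only the libraries compared (adjusted p = 0.0112) or no filter (adjusted p = 0.00834). With only the libraries compared, its change in KO2 was below that in WT by -0.36 (adjusted p = 0.0433). Neither was called in the main fit of all 12 libraries. SLC1A6 went from 17.4 and 12.6 CPM to 6.41 and 6.06 CPM in WT (log2 -1.25, SE 0.18, adjusted p = 2.74e-05), from 16.3 and 16.7 to 7.85 and 7.84 CPM in KO1, and from 15.4 and 13.0 to 12.5 and 10.2 CPM in KO2. Both genes fell in WT and KO1 without overlap, and in KO2 only SLC1A3 passed the test, since SLC1A6 changed there by log2 -0.33 (adjusted p = 0.117). KO2 at day 4 exceeded WT in SLC1A6 by log2 0.86 (SE 0.18, adjusted p = 0.00211), and KO1 exceeded WT in SLC1A3 by 0.41 (adjusted p = 0.0352). That SLC1A3 call was lost without KO1 day 4 replicate 1 (adjusted p = 0.212) or 2 (adjusted p = 0.0855), WT day 4 replicate 1 (adjusted p = 0.108) or 2 (adjusted p = 0.212), KO2 day 4 replicate 1 (adjusted p = 0.0549) or WT day 0 replicate 1 or 2 (adjusted p = 0.0502 each). SLC1A2 and SLC1A7 stayed at 3.97 CPM or less. SLC1A2 rose in KO1 (log2 0.74, adjusted p = 0.0256) but was not called without KO1 day 4 replicate 1 (log2 0.44, adjusted p = 0.282) or KO1 day 0 replicate 1 (log2 0.66, adjusted p = 0.0569). SLC1A7 fell in KO2 (log2 -1.77, adjusted p = 0.00421), a call lost without KO2 day 0 replicate 2 (adjusted p = 0.0587), and its KO1 change of -0.95 (adjusted p = 0.0517) became -1.18 without KO1 day 0 replicate 2 and then passed the test (adjusted p = 0.0357).

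The proton-coupled carrier SLC36A1 rose in WT and KO1 and fell in KO2. SLC36A1 (PAT1), which exports small neutral amino acids from lysosomes, had 17.0 and 16.4 CPM in WT at day 0 and 38.6 and 27.2 CPM at day 4 (log2 0.97, SE 0.15, adjusted p = 6.86e-05). KO1 went from 17.4 and 18.3 CPM to 30.3 and 26.3 CPM (log2 0.66, adjusted p = 0.00106). KO2 went from 21.3 and 19.2 CPM to 13.0 and 13.9 CPM (log2 -0.59, SE 0.16, adjusted p = 0.00656), a fall that was not called without KO2 day 0 replicate 1 (log2 -0.51, adjusted p = 0.0623). Both KO2 day 4 libraries were the lowest of the 12, and WT and KO1 overlapped at day 4. KO2 lay below WT by 2.44-fold (log2 -1.29, SE 0.15, adjusted p = 1.85e-05) and below KO1 by log2 -1.07 (adjusted p = 0.000112). The change over 4 days in KO2 was below that in WT by log2 -1.56 (SE 0.22, adjusted p = 0.000305), and was called in every alternative tried, at an adjusted p of at most 0.00365.

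The neighbour SLC36A2 overlaps SLC36A1, so some of their reads may not be told apart, and its counts were far lower. Like SLC36A1, SLC36A2 rose in WT and was lower in KO2 than in WT at day 4. Its changes over the 4 days in KO1 (log2 0.15, adjusted p = 0.76) and KO2 (log2 -0.8, adjusted p = 0.19) were not called. It had 0.581 and 1.34 CPM in WT at day 0 and 3.13 and 2.19 CPM at day 4, 1.55 and 1.17 CPM in KO1 and 0.722 and 0.602 CPM in KO2 at day 4. SLC36A2 rose in WT by log2 1.38 (adjusted p = 0.00665), a call lost without replicate 1 of WT at day 0 (adjusted p = 0.0707) or day 4 (adjusted p = 0.0656) and a value of 2.18 without WT day 0 replicate 2. KO2 lay below WT at day 4 without overlap, by log2 -1.99 (SE 0.40, adjusted p = 0.00178). FAT2, which also overlaps SLC36A1, passed the test in KO1 alone (log2 -0.77 over 4 days, adjusted p = 0.0281). SLC36A4 had group means of 19.5 to 23.0 CPM and passed no test, and SLC36A3 stayed at 1.03 CPM or less. The endoderm markers were lower in KO2 at day 4 too, as given above, and their part in the SLC36A1 difference was not tested.

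Sodium-coupled neutral carriers of the SLC38 family supply glutamine, alanine and other neutral amino acids. SLC38A4, which favours alanine and is imprinted in mouse and known from liver and placenta, fell from 69.6 and 77.2 CPM to 19.8 and 17.7 CPM in WT, 3.93-fold (log2 -1.97, SE 0.10, adjusted p = 5.53e-10). KO1 went from 83.7 and 77.8 CPM to 25.4 and 23.9 CPM, and KO2 from 85.2 and 86.5 CPM to 19.9 and 22.0 CPM. All 6 day 4 libraries lay below all day 0 libraries. KO1 at day 4 exceeded WT by log2 0.39 (SE 0.11, adjusted p = 0.0175), not called without KO1 day 4 replicate 1 (adjusted p = 0.139) or 2 (adjusted p = 0.0587) or WT day 4 replicate 2 (adjusted p = 0.179).

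SLC38A1 and SLC38A2, glutamine and alanine carriers of which the second is known to rise on amino acid starvation, fell in WT. SLC38A1 went from 696 ± 55.3 to 579.9 ± 23.9 CPM (SD, n = 2; log2 -0.26, adjusted p = 0.0106), a call lost without WT day 0 replicate 2 (adjusted p = 0.169) or WT day 4 replicate 2 (adjusted p = 0.113). At day 4 it stood at 806 ± 36.4 CPM in KO1 and 728 ± 18.1 CPM in KO2, above WT by log2 0.47 (adjusted p = 0.000641) and 0.33 (adjusted p = 0.00568). In KO1 the SLC38A1 change over the 4 days was log2 0.19 (adjusted p = 0.0505), which was called without KO1 day 0 replicate 2 (log2 0.27, adjusted p = 0.00267), WT day 0 replicate 1 (adjusted p = 0.0369) or 2 (adjusted p = 0.0382), with RLE factors (adjusted p = 0.0494), with no filter (adjusted p = 0.0397) and with a replicate block (adjusted p = 0.0423). The SLC38A1 difference of KO2 from WT at day 4 was lost without KO2 replicate 1 (adjusted p = 0.0688) or WT replicate 2 (adjusted p = 0.0759) of day 4. SLC38A2 went from 954 ± 19.3 to 654 ± 4.24 CPM in WT (log2 -0.55, adjusted p = 3.67e-05) and from 974 ± 15.4 to 663 ± 29.3 CPM in KO2 (log2 -0.55, adjusted p = 3.65e-05). KO1 had 885 ± 96.7 CPM at day 0 and 835 ± 44.4 CPM at day 4 (log2 -0.08, adjusted p = 0.373), a change that was called without KO1 day 0 replicate 2 (log2 -0.19, adjusted p = 0.0201). At day 4 KO1 lay above WT by log2 0.35 (adjusted p = 0.00541), which was lost without KO1 day 4 replicate 1 (adjusted p = 0.0833).

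Further members of the SLC38 family act at lysosomes or other inner membranes. SLC38A9, the lysosomal arginine sensor of the mTORC1 kinase, rose in KO1 and KO2 by log2 0.47 and 0.38 (adjusted p = 0.000841 and 0.00666), with 0.10 in WT (adjusted p = 0.46). The KO2 rise was lost without KO2 day 0 replicate 1 (adjusted p = 0.0614) or KO2 day 4 replicate 2 (adjusted p = 0.0698). SLC38A9 was higher in KO1 than in WT at day 4, at 48.7 ± 2.15 against 38.0 ± 0.567 CPM (log2 0.36, adjusted p = 0.0206), a call lost without any 1 of the 4 libraries compared (adjusted p = 0.165 and 0.0648 without KO1 replicate 1 and 2, 0.128 and 0.0981 without WT replicate 1 and 2). SLC38A10 rose from 40.3 ± 2.97 to 65.3 ± 2.71 CPM in WT (SD, n = 2; log2 0.70, adjusted p = 1.7e-05) and ended at 47.2 and 48.7 CPM in KO1 and 44.2 and 47.2 CPM in KO2, below both WT libraries. These were lower than WT by log2 -0.45 and -0.51 (adjusted p = 0.00329 and 0.000692), with adjusted p of at most 0.0488 and 0.0133 over the alternatives. The rise of SLC38A10 in KO1 was log2 0.24 (adjusted p = 0.034), lost without KO1 day 0 replicate 2 (adjusted p = 0.0999) or KO1 day 4 replicate 1 (adjusted p = 0.0827) or 2 (adjusted p = 0.156).

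SLC38A7, a lysosomal glutamine exporter, rose in WT by log2 0.39 (adjusted p = 0.0165), a call lost without WT day 0 replicate 1 (adjusted p = 0.0505) or 2 (adjusted p = 0.0735) or WT day 4 replicate 1 (log2 0.24, adjusted p = 0.199). In KO1 the SLC38A7 change was 0.26 (adjusted p = 0.0902), called without KO1 day 0 replicate 1 (log2 0.41, adjusted p = 0.00429). SLC38A5 differed between the clones at day 4, at 41.8 ± 1.81 CPM in KO1 and 64.9 ± 2.79 CPM in KO2 (log2 0.63, adjusted p = 0.0346). Leaving out any library of WT, or of the clones at day 4, moved that adjusted p to between 0.0521 and 0.175. At day 0 its KO1 libraries read 66.5 and 33.7 CPM, so its change over 4 days in KO1, log2 -0.25 (adjusted p = 0.309), was 0.32 without replicate 1 (adjusted p = 0.00773) and -0.66 without replicate 2 (adjusted p = 1.6e-06). SLC38A3 and SLC38A6 had group means of 3.91 to 7.22 CPM and passed no test. The KO1 change of SLC38A3, log2 -0.44 (adjusted p = 0.13), was called without KO1 day 0 replicate 2 (log2 -0.78, adjusted p = 0.00257), and its difference between KO2 and KO1 at day 4 without replicate 1 or 2 of KO1 day 0 (log2 0.51, adjusted p = 0.0417 and 0.0406).

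SLC43 carriers move leucine and other large neutral amino acids without sodium, except SLC43A3, known as a carrier of purine bases. SLC43A2 (LAT4) rose from 14.1 and 11.4 CPM to 25.6 and 26.9 CPM in WT (log2 1.05, SE 0.26, adjusted p = 0.00393). KO1 went from 20.7 and 9.56 CPM to 25.2 and 24.8 CPM, and KO2 from 17.3 and 13.0 CPM to 22.4 and 29.9 CPM. All 3 lines rose without overlap, and no difference between lines at day 4 passed the test. Several of these calls rest on 1 library, since the WT rise was lost without WT day 0 replicate 2 (adjusted p = 0.056). The KO1 rise (log2 0.74, adjusted p = 0.0193; 1.39 without KO1 day 0 replicate 1) was lost without KO1 day 0 replicate 2 (adjusted p = 0.127) or KO1 day 4 replicate 1 (adjusted p = 0.0703) or 2 (adjusted p = 0.0672), and the KO2 rise (log2 0.79, adjusted p = 0.0217) without replicate 2 of day 0 (adjusted p = 0.163) or of day 4 (adjusted p = 0.181).

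SLC43A3 fell in WT from 48.3 ± 1.57 to 26.0 ± 2.40 CPM (SD, n = 2; log2 -0.89, adjusted p = 0.000505) and by log2 -0.47 and -0.52 in KO1 and KO2. The KO1 fall (adjusted p = 0.0258) was lost without KO1 day 0 replicate 1 (log2 -0.08, adjusted p = 0.533), whose partner read 33.3 CPM against 54.0 CPM, and without KO1 day 4 replicate 1 (adjusted p = 0.0617) or 2 (adjusted p = 0.145), and it was -0.78 without KO1 day 0 replicate 2. The KO2 fall (adjusted p = 0.0184) was lost without KO2 day 0 replicate 1 (adjusted p = 0.118) or KO2 day 4 replicate 2 (adjusted p = 0.135). SLC43A1 (LAT3) had group means of 28.7 to 39.7 CPM. Its fall in WT, log2 -0.28 (adjusted p = 0.0493), and its difference between KO2 and WT at day 4, 0.33 (adjusted p = 0.0321), were each lost without several single libraries. The WT fall was -0.12 without WT day 0 replicate 1 (adjusted p = 0.478), and the KO2 difference was lost without any library of KO2 or any WT day 4 library (adjusted p = 0.0538 to 0.216).

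Most tested genes of a list that responds to amino acid shortage through GCN2 and ATF4 were higher in KO1 at day 4. The list was chosen with earlier results of these data known, so its counts are descriptive and give no independent support. Of 17 tested genes of this list 11 were higher and 0 lower in KO1 than in WT, beside 10.5% and 9.42% of all features, with a median log2 difference of 0.59 against 0.01 for all features. In KO2 3 were higher and 1 lower, beside 13.5% and 14.5% of all features, with a median of 0.03. Before differentiation, at day 0, 0 of the 17 were called in KO1 against WT, but their median log2 difference was already 0.29 (all features 0). The change over 4 days in KO1 exceeded that of WT for 5 and fell short for 0 (background 4.99% and 4.81%), with a median of 0.28. At day 4 the pseudokinase gene TRIB3 had 50.8 and 40.3 CPM in WT, 120.2 and 93.3 CPM in KO1 and 34.3 and 42.2 CPM in KO2 (KO1 minus WT, log2 1.23, SE 0.15, adjusted p = 4.49e-05). The secreted glycoprotein gene STC2 differed by log2 0.86 in KO1 (adjusted p = 0.000894) and 0.24 in KO2 (adjusted p = 0.264). ATF4 itself had 358 and 355 CPM in WT, 482 and 467 CPM in KO1 and 325 and 327 CPM in KO2, higher in KO1 by log2 0.41 (adjusted p = 0.0034). The serine synthesis gene PSAT1 and the asparagine synthetase gene ASNS were higher in both clones, by 0.74 and 0.71 in KO1 and 0.47 and 0.43 in KO2, while the phosphatase subunit gene PPP1R15A was lower in KO2 by log2 -0.90 (adjusted p = 8.73e-05). The 11 in KO1 became 14 without either KO1 day 0 library and 7 without WT day 4 replicate 2 or KO1 day 4 replicate 1. The count lower in KO2 rose from 1 to 6 without either KO1 day 0 library.

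**Figure D4:**
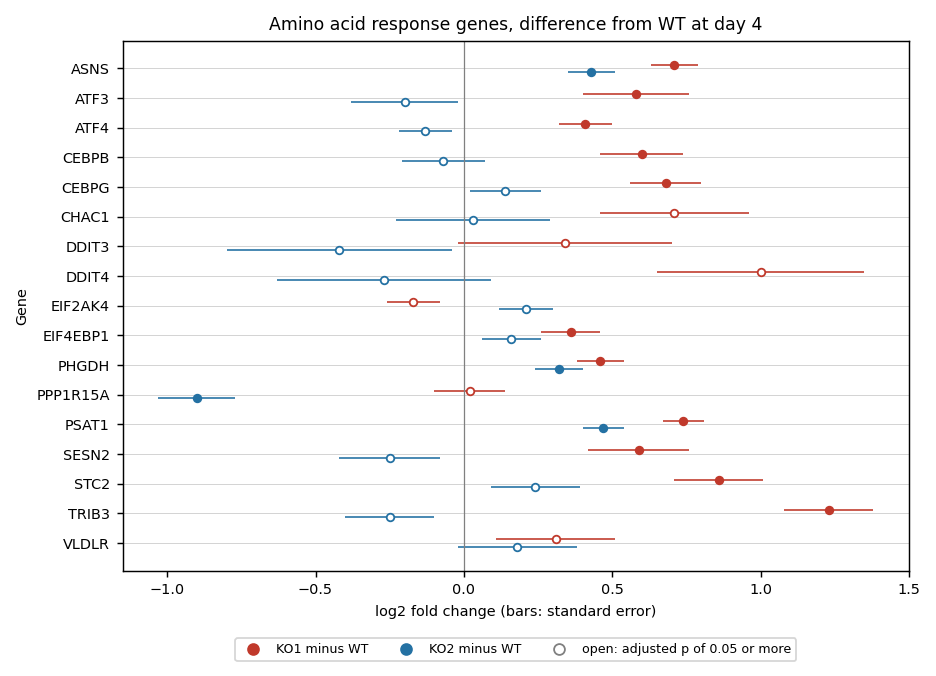
Log2 difference from WT at day 4 for 17 genes of the amino acid response in KO1 and KO2, with bars for the standard error and filled points for an adjusted p under 0.05. In KO1 11 of the 17 were called, all higher, with TRIB3 at log2 1.23, and in KO2 3 were called higher and PPP1R15A lower.

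The other lists of amino acid genes are read against the same shares of all features, 10.5% higher and 9.42% lower in KO1 and 13.5% and 14.5% in KO2. Of 20 tested carriers of other families 2 were higher and 3 lower in KO1 at day 4, and 4 higher and 3 lower in KO2, with medians of 0.12 and -0.01, so neither count is a result about this list. The glycine transporter SLC6A9 was higher in KO1 by log2 0.82 (adjusted p = 0.000322) and the neutral amino acid transporter SLC6A15 in KO2 by 1.11 (adjusted p = 7.96e-06). Of 36 genes of amino acid sensing by mTORC1 4 were higher and 5 lower in KO1, and 5 and 4 in KO2, so these counts too lie near the shares of all features. SESN1, a leucine-regulated inhibitor of the pathway, was lower in both (log2 -0.84 and -0.50, adjusted p = 0.000165 and 0.00425). RRAGD, a Rag GTPase that recruits mTORC1 to lysosomes, fell over the 4 days by log2 -2.48 in WT (adjusted p = 1.08e-09).

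Among 14 genes of cystine and glutathione metabolism, the pathway that SLC7A11 feeds, 4 were higher and 2 lower in each clone, with medians of 0.22 in KO1 and 0.07 in KO2, beside the shares of all features of 10.5% and 9.42% in KO1 and 13.5% and 14.5% in KO2. GCLM, the modifier subunit of the first enzyme of glutathione synthesis, was higher by log2 0.86 in KO1 (adjusted p = 0.000232) and 0.55 in KO2 (adjusted p = 0.00444), whereas GGT1, which breaks glutathione down outside the cell, was lower by log2 -0.92 and -0.99 (adjusted p = 0.0172 and 0.00792). Of 17 glutamine, glutamate and arginine enzymes 5 were higher in each clone and 3 and 1 lower in KO1 and KO2, with medians of 0.02 and 0.15. PRODH, which oxidises proline, was lower by log2 -1.26 and -1.27 (adjusted p = 0.00149 and 0.000807). Of 16 enzymes of branched-chain, methionine, glycine and tryptophan metabolism 2 were higher and 5 lower in KO1, and 5 and 1 in KO2, with medians of -0.03 and 0.2. BCAT1, the cytosolic branched-chain aminotransferase, was higher in KO1 by log2 0.73 (adjusted p = 1.58e-05) and in KO2 by 0.48 (adjusted p = 0.000335).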

How the data were processed

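The authors deposited raw counts of reads for each feature. The submitters' processing notes name Bowtie2 2.1.0, HTSeq 0.6.1 and the build hg19. The annotation and strand setting used were not given in the sources used here, so some reads of overlapping genes may not be told apart. Reads outside features came to 29.2% to 30.5% of the counts listed per library. Reads listed as ambiguous came to 1.17% to 1.41% and those of too low quality to 19.3% to 22.2%, and neither entered the gene counts. Counts were scaled with TMM factors (0.937 to 1.05) into CPM and fitted with edgeR 4.0.16 (R 4.3.3) over all 12 libraries and 6 groups after filterByExpr, with 6 residual degrees of freedom. Adjusted p values are Benjamini-Hochberg over 16792 features, with a threshold of 0.05. A standard error is the size of the log2 change over the square root of F. The script was tested on simulated data. Members and gene lists were chosen with earlier results of these data known. Members called with a log2 change of at least 1 and at least 5 CPM in any comparison have every library's value, and others have library or group values. Of each related list, the 2 largest called changes each way could be named, plus ATF4, chosen after its values were seen. Alternatives were upper-quartile and RLE factors, DESeq2 1.42.0, other filters, smaller fits, a replicate block and leaving out each library. The 8 ChIP-seq samples are not analysed here.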

Additional observations from a re-analysis of the deposited data

Results flagged for a closer look

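By edgeR's test of the difference between the changes, the change from day 0 to day 4 differed from that of WT for 10 transporters in KO1. It differed for 8 in KO2. Of all features 4.99% were called higher and 4.81% lower in KO1, and 6.37% and 7.50% in KO2. In KO1 the difference was towards higher values for SLC7A7 (log2 1.17, adjusted p = 0.00971), SLC7A10 (1.07, adjusted p = 0.0438), SLC1A4 (1, adjusted p = 0.0371), SLC7A11 (0.81, adjusted p = 0.0426), SLC7A1 (0.77, adjusted p = 0.000988) and SLC7A8 (0.73, adjusted p = 0.00588). It was also higher for SLC1A5 (0.54, adjusted p = 0.00526), SLC38A2 (0.46, adjusted p = 0.0169) and SLC38A1 (0.45, adjusted p = 0.0185), and lower for SLC38A10 (-0.46, adjusted p = 0.039). SLC7A1, SLC7A8 and SLC1A5 were called in every alternative. SLC7A7 was lost without WT day 0 replicate 2 (adjusted p = 0.0599) or WT day 4 replicate 2 (adjusted p = 0.0502). The other 6 were each lost without KO1 day 4 replicate 1 and without at least 2 further libraries, SLC7A11 without any library of WT, KO2 or KO1 day 4. All 6 were also lost in a fit of only the libraries compared (adjusted p = 0.0564 to 0.0945). With DESeq2 SLC7A11 (adjusted p = 0.113), SLC7A10 (adjusted p = 0.0694) and SLC38A10 (adjusted p = 0.0559) were lost. SLC7A11 was lost with upper-quartile factors too (adjusted p = 0.0527), and SLC38A10 with no filter (adjusted p = 0.0545).

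In KO2 the difference was towards lower values for SLC36A1 (-1.56, adjusted p = 0.000305), SLC36A2 (-2.17, adjusted p = 0.0299) and SLC38A10 (-0.49, adjusted p = 0.0246). It was towards higher values for SLC7A2 (0.96, adjusted p = 0.000444), SLC1A6 (0.93, adjusted p = 0.0187), SLC7A1 (0.49, adjusted p = 0.0123), SLC1A5 (0.48, adjusted p = 0.00707) and SLC38A1 (0.36, adjusted p = 0.0413). SLC36A1, SLC7A2 and SLC1A5 were called in every alternative. The other 5 were each lost without KO2 day 4 replicate 1 and without at least 3 further libraries. SLC36A2 was also lost with DESeq2 (adjusted p = 0.0627), and SLC38A1 with the filter of 1 CPM (adjusted p = 0.052). SLC36A1 passed the test in opposite directions in WT and KO2, and SLC38A1 did so in WT and KO1 under 5 alternatives, in which its KO1 change was 0.19 to 0.27.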

How the results depend on the processing

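Of 125 called results for single transporters over the 10 comparisons, 82 were called in all 19 alternatives and 43 were lost in at least 1. Of 225 results not called, 54 were called in at least 1, mostly without KO1 day 0 replicate 1 (36) or 2 (34). SLC38A5 reversed without KO1 day 0 replicate 1, to 0.32 for its change in KO1 (adjusted p = 0.00773) and 0.49 for the difference of that change from WT (adjusted p = 0.00583), and the lowest values, without replicate 2, were -0.66 and -0.49. The cause was not tested. No count moved by over 1.5 times with upper-quartile factors, RLE factors, the filter of 1 CPM or the replicate block.

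A fit of only the libraries compared gave 5 lower in KO1 and 10 higher in KO2 against WT at day 4, 15 lower in KO2 against KO1, 1 higher in KO2 at day 0, 4 higher and 0 lower for the difference of changes in KO1, and 7 lower in KO2. With no filter 4 were lower in KO1 at day 4, 1 higher and 1 lower in KO1 and 1 higher in KO2 at day 0, and 0 lower for the difference of changes in KO1. DESeq2 gave 1 higher in KO2 against KO1 and 0 lower for the difference of changes in KO1. The counts over all features moved too. With only the libraries compared, features lower in KO1 against WT at day 4 went from 1582 to 2556. In that fit features higher in KO2 against WT went from 2266 to 3156. With no filter, features higher in KO1 at day 0 went from 10 to 233. With DESeq2, features higher in KO2 against KO1 went from 1810 to 1464.

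Leaving out 1 library gave, against WT at day 4, 8 to 17 higher and 1 to 6 lower in KO1 and 4 to 10 higher and 3 to 8 lower in KO2, and 1 to 4 higher and 7 to 12 lower in KO2 against KO1. At day 0 it gave 0 to 1 higher and 0 to 5 lower in KO1 and 0 to 1 higher in KO2. For the difference of changes it gave 3 to 15 higher and 0 to 4 lower in KO1, and 2 to 6 higher and 1 to 7 lower in KO2. Where a group is left with 1 library, that library is assumed to vary like the others. The number of all features called also changed widely between these fits, so a changed count is not particular to the transporters.

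Deviations of same-numbered libraries correlated by -0.04 to 0.15, so no strong effect shared by replicate number was seen. Whether same-numbered libraries were prepared together is not stated in the labels. The fit with a replicate block lost 0 calls and added 7, giving 14 higher and 3 lower in KO1 and 7 and 7 in KO2 against WT at day 4. Precision is limited by 2 libraries a group and, for transcripts under about 1 CPM, by depth.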
